A study of Mus musculus with 11 samples.

Results

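Serotonin receptor genes were followed in neurons of the medial prefrontal cortex (mPFC) that carry the stress peptide receptor CRF1. The set held 10 genes, Htr1a, Htr1b, Htr1f, Htr2a, Htr2c, Htr3a, Htr4, Htr5a, Htr6 and Htr7, listed by symbol, in a rule that takes no measured value. All 10 were among the 53465 genes in the files, and all 10 passed the filter on low counts, which left 17093 genes for testing. RNA was sequenced from mPFC CRF1+ neurons of 11 male CRF1:GFP mice, a reporter line in which GFP marks CRF1-expressing cells, after fluorescence-activated cell sorting. The comparison of 6 naïve mice with 5 withdrawn mice asked how transcription in these neurons differs after withdrawal from chronic ethanol.

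All mice were adult, older than 10 weeks, carried the same reporter and were injected with pyrazole, an inhibitor of alcohol dehydrogenase. Withdrawn mice had also been injected with ethanol and exposed to intermittent ethanol vapor for 5 to 6 weeks, and were taken 5 to 8 days into abstinence. Naïve mice were placed in the same kind of chamber with air. A library held the sorted cells of 1 mouse, so n counts mice. For withdrawn mice 3, 4 and 5, whose title and treatment name ethanol, a further label reads control and repeats the animal number of a naïve mouse, and the text on the design gives 5 mice as control and 6 as ethanol. Results were therefore also computed without these 3 mice.

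Serotonin is released in the cortex by fibers of the raphe nuclei and acts on a large family of receptors. Those encoded by Htr1a, Htr1b, Htr1f and Htr5a couple to Gi/o proteins, which lower cyclic AMP and can open potassium channels. Those encoded by Htr2a and Htr2c couple to Gq/11 proteins and phospholipase C, and those encoded by Htr4, Htr6 and Htr7 couple to Gs proteins and raise cyclic AMP. Htr3a encodes a subunit of a cation channel that serotonin opens, and is known in cortex as a marker of a class of interneurons.

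The libraries held 9970161 to 17855514 counts on genes in naïve mice and 7351567 to 22244869 in withdrawn mice. Expression is given as CPM, the counts scaled to the TMM-normalized size of the library, and 3 counts, the limit that a count of 0 allows, were worth 0.140 to 0.369 CPM. These limits speak of counting error alone, because the cDNA was amplified before sequencing. Naïve mouse 5 had the fewest genes detected, 15585, against up to 31830 in the other mice. Crhr1, which encodes CRF1, had 92.7 ± 21.5 CPM in naïve mice (SD, n = 6) and 89.3 ± 33.6 CPM in withdrawn mice (SD, n = 5). Slc17a7, the vesicular glutamate transporter of cortical excitatory neurons, had 1435 ± 346 and 1362 ± 447 CPM, and Gad2, a GABA-synthesizing enzyme, had 39.9 ± 21.5 and 57.5 ± 47.3 CPM. In bulk samples of this kind, fewer cells of a type and less RNA per cell cannot be told apart.

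Levels were compared between genes as CPM per kilobase of exon. Htr2a was the highest of the 10 receptor genes, with a mean of 7.96 ± 2.63 CPM per kb (SD, n = 11). It ranked first in 7 mice and among the first 3 in 11, and was above the next gene in the order, Htr1a, in 9 of 11 mice. Htr1a and Htr5a followed with 4.47 ± 2.94 and 4.36 ± 2.00 CPM per kb, and this pair did not differ beyond its spread, since Htr1a was the higher of the pair in 5 of 11 mice. The difference between Htr2a and Htr1a, 3.49 ± 3.73 CPM per kb (SD, n = 11), was itself smaller than its spread over mice.

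The other genes lay lower and overlapped one another. Htr3a had 2.53 ± 2.97 CPM per kb, Htr1b 1.98 ± 0.88, Htr6 1.96 ± 1.18 and Htr2c 1.83 ± 1.19. Htr1f had 1.60 ± 1.26, Htr7 1.40 ± 1.24 and Htr4, the lowest, 0.53 ± 0.74 CPM per kb. No gene in the order stood above its next neighbour by more than the SD of that difference, and the pairs Htr3a and Htr1b, Htr1b and Htr6, and Htr1f and Htr7 were close to evenly split between mice (higher in 5, 4 and 6 of 11). The place of Htr2c depended on the length used. Its annotated exons add up to 9328 bases but its longest transcript holds 4883, and with the latter its level was 3.50 CPM per kb.

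**Figure D1:**
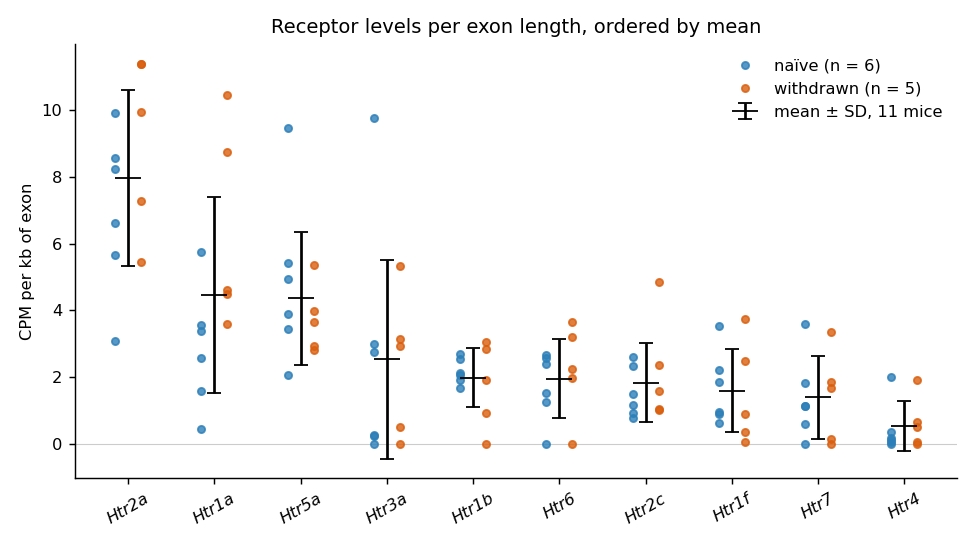
Level of each receptor gene in CPM per kilobase of exon (vertical axis, linear), ordered by the mean over mice. Points are mice (naïve, n = 6, and withdrawn, n = 5) and bars are mean ± SD of all 11 mice. Htr2a has the highest mean, 7.96, and the points of neighbouring genes overlap throughout.

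No receptor gene was called between withdrawn and naïve mice. Genes were called where the quasi-likelihood test of edgeR, with p-values adjusted over all genes tested by the Benjamini-Hochberg method, gave 0.05 or less and the log2 fold change was larger than 0.6 in size. With 0 of 10 receptor genes called, the background was also close to 0, since 1 of 17093 genes (0.00585%) passed. At an unadjusted p under 0.05, 1 of 10 receptor genes passed (Htr1a) beside 7.22% of all genes. DESeq2 called 0 of 10 beside 1.66% of the genes it tested. For 0 of 10 did all withdrawn mice lie above or below all naïve mice, a pattern that 0.948% of all tested genes had. The log2 fold changes (withdrawn against naïve) of the receptor genes ran from -0.38 to 1.14 with a median of 0.19, 6 higher and 4 lower, where the median of all tested genes was 0.02. The smallest adjusted p was 0.676, again for Htr1a.

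**Figure D2:**
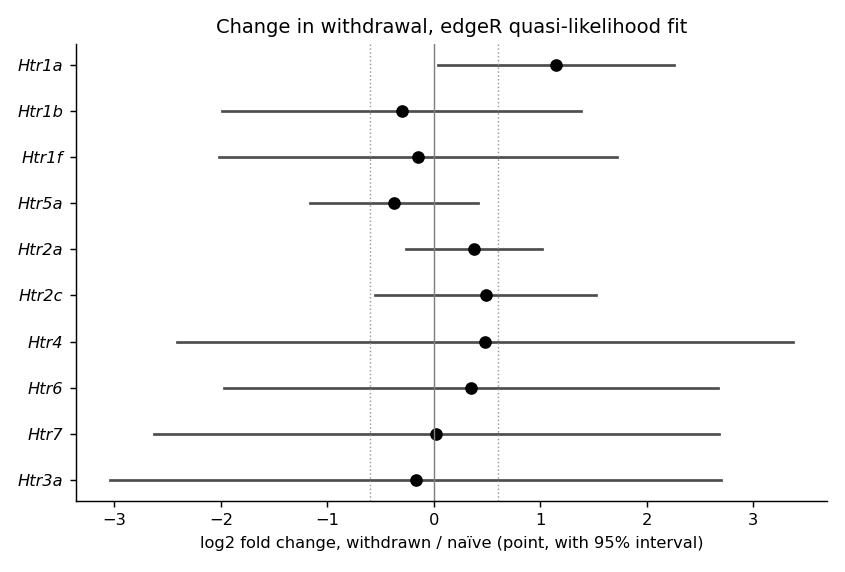
Log2 fold change of each receptor gene in withdrawn (n = 5) against naïve (n = 6) mice from the edgeR fit, with its 95% interval. Dotted lines mark 0.6 in either direction. The interval of Htr1a, 0.04 to 2.25, lies above 0 before any adjustment for the number of genes, and the other 9 include 0.

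Among the Gi/o-coupled receptors, Htr1a had the largest fold change. Its product is the inhibitory receptor of raphe neurons themselves and of cortical pyramidal cells, where it can open potassium channels. The gene, ENSMUSG00000021721, lies at chr13:105443639-105448122 of GRCm38 and is a single exon that shares no bases with the exons of another gene. Naïve mice ran from 2.04 CPM (19 counts, mouse 1) over a median of 13.4 to 25.8 CPM (mouse 3). Withdrawn mice 1 to 5 had 39.2, 46.9, 20.1, 16.1 and 20.7 CPM. Withdrawn mice 1 and 2 lay above all naïve mice, while mice 3, 4 and 5 fell inside the naïve range, in which naïve mouse 3 was the only one above them all. Naïve mice averaged 12.9 ± 8.17 CPM (SD, n = 6) and withdrawn mice 28.6 ± 13.6 CPM (SD, n = 5), and the log2 fold change was 1.14 (SE 0.52, 95% interval 0.04 to 2.25), which did not pass after adjustment (edgeR adjusted p = 0.676). DESeq2 gave 1.18 (SE 0.53, adjusted p = 0.351).

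The highest Htr1a values came from withdrawn mice 1 and 2, the mice whose labels do not conflict. Without withdrawn mice 3, 4 and 5 the log2 fold change was 1.69 (SE 0.66, edgeR adjusted p = 0.789) and the remaining 2 withdrawn mice were above all 6 naïve mice. Leaving out each mouse in turn gave 0.88 to 1.46. Without naïve mouse 3, which had the highest naïve value, the groups no longer overlapped. Groups of fewer mice separate more easily, and the share of all genes that separate in these smaller sets is not given here. The log2 fold change was above 0 in all 20 settings tried, with an unadjusted p under 0.05 in 12 of them and a call in 0. These settings reuse the same mice and are not independent of one another. The unadjusted edgeR p was 0.0986 without withdrawn mouse 1 and 0.121 without withdrawn mouse 2.

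Markers of other cells moved with the same mice in part. Gad1, a GABA-synthesizing enzyme of interneurons, had its highest levels in withdrawn mice 1 and 2 (325 and 277 CPM) and 11.2, 78.4 and 85.4 CPM in mice 3 to 5, against 33.3 to 150 CPM in naïve mice. Of 8 interneuron genes, Gad1 included, 6 were higher and 2 lower in withdrawn mice and 0 were called. Sst, the peptide of a class of interneurons, went the other way, with 0.07 to 699 CPM in naïve mice (median 156), 32.6 CPM in withdrawn mouse 4 and at most 0.07 CPM in the other withdrawn mice (log2 fold change -5.33, SE 2.07, edgeR adjusted p = 0.545). The summed level of the 8 genes, to which Sst contributed much in naïve mice 1, 2 and 6, was 58.6 to 853 CPM in naïve and 21.7 to 515 CPM in withdrawn mice, with 0 withdrawn mice above the highest naïve mouse. With a score of these genes, their mean log2 CPM, as a covariate, the log2 fold change of Htr1a was 1.22 (edgeR adjusted p = 0.419). That score was 2.72 and 3.41 in withdrawn mice 1 and 2 and 0.039 to 4.09 in naïve mice. It was thus not highest in the mice with the highest Gad1, and cannot adjust for that difference. The summed level of 10 fibroblast genes was 25.3 to 147 CPM in naïve mice and 82.9 to 2870 CPM in withdrawn mice, of which 4 of 5 were above the highest naïve mouse and withdrawn mouse 2 was not. For 8 astrocyte genes the sum was 315 to 533 CPM in naïve and 257 to 678 CPM in withdrawn mice, 3 of them above the highest naïve mouse. Yet of the 7 astrocyte genes tested, 2 were higher and 5 lower in withdrawn mice, with a median log2 fold change of -0.38. Gja1, among the higher ones, had 15.3 ± 12.0 CPM in naïve and 187 ± 122 CPM in withdrawn mice. For 7 microglia genes the sum was 8.81 to 24.9 and 8.28 to 44.3 CPM, with 4 above. Of the 4 microglia genes tested, 2 were higher and 2 lower. The part of fibroblast, astrocyte and microglia RNA in the values of Htr1a was not tested, and that of interneuron RNA was not tested beyond the score used as a covariate.

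Htr1b encodes the receptor that restrains transmitter release at axon terminals, and lies on the minus strand at chr9:81628291-81633828 (ENSMUSG00000049511). Naïve mice were close together, from 7.91 over a median of 9.84 to 12.7 CPM. Withdrawn mice had 9.08, 0, 13.4, 4.43 and 14.4 CPM, so that 2 lay above and 2 below all naïve mice. The SD was 1.79 CPM among naïve mice and 6.09 CPM among withdrawn mice around means of 10.2 and 8.27 CPM, and the log2 fold change was -0.30 (SE 0.78, 95% interval -1.99 to 1.38, edgeR adjusted p = 0.969). Withdrawn mouse 2 had 0 counts on Htr1b while other receptor genes, Htr1a among them, were at their highest there. Without it the log2 fold change was 0.01. Of the 4724 exon bases of Htr1b, 852 are shared with D430036J16Rik on the opposite strand, which had 0.99 to 11.4 CPM over the mice, and whether the counting used strand is not given in the sources used here.

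Htr1f, another Gi/o-coupled receptor gene and the target of a class of migraine drugs, lies at chr16:64924729-65105854 (ENSMUSG00000050783). It had 1.63 to 9.09 CPM in naïve mice, with a median of 3.61. Withdrawn mice had 0.936, 9.63, 2.34, 0.123 and 6.44 CPM, the fourth of them from 1 count. The withdrawn mice spread past the naïve range at both ends, 1 above and 2 below it, and the log2 fold change was -0.15 (SE 0.87, 95% interval -2.01 to 1.72, edgeR adjusted p = 0.986).

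Htr5a (chr5:27842149-27855088, ENSMUSG00000039106), a receptor gene expressed almost only in the nervous system, had counts in all 11 mice, from 123 upwards. Naïve mice ran from 11.2 over 23.7 to 50.9 CPM and withdrawn mice had 19.6, 28.9, 21.4, 15.1 and 15.8 CPM, all inside the naïve range. Naïve mice averaged 26.2 ± 13.7 CPM and withdrawn mice 20.2 ± 5.52 CPM, and the log2 fold change, -0.38 (SE 0.37, 95% interval -1.16 to 0.41), did not pass (edgeR adjusted p = 0.896). Its direction was the same in all settings, with values between -0.54 and -0.07.

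Htr2a (chr14:74640840-74709494, ENSMUSG00000034997) encodes the excitatory receptor of cortical pyramidal neurons through which classical psychedelics act. It had 255 to 1367 counts per mouse and the smallest biological coefficient of variation of the set, 0.367, which is the relative spread between mice that the fit assigns to the gene. Naïve mice ran from 17.3 (mouse 5) over 41.7 to 55.6 CPM, and withdrawn mice had 30.6, 40.7, 63.9, 55.8 and 63.9 CPM. Withdrawn mice 3, 4 and 5 were above all naïve mice. Withdrawn mice 1 and 2 were inside the naïve range and below its median, and withdrawn mouse 1 was above naïve mouse 5 alone. The means were 39.3 ± 13.7 and 51.0 ± 14.8 CPM, with a log2 fold change of 0.37 (SE 0.30, 95% interval -0.26 to 1.01, edgeR adjusted p = 0.866). The 3 mice above the naïve range are those whose labels conflict, and without them the log2 fold change was -0.20.

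Htr1a and Htr2a thus had their high withdrawn values in different mice. In CPM per kb, withdrawn mouse 1 had 5.46 of Htr2a and 8.74 of Htr1a, and withdrawn mouse 2 had 7.27 and 10.5. In the other withdrawn mice Htr2a was the higher gene, and the ratio of Htr2a to Htr1a had a median of 2.47 and a maximum of 2.77 over all 5. Naïve mice ran from 1.49 to 12.5 with a median of 2.51, so withdrawn mice 1 and 2 were the only mice with less Htr2a than Htr1a.

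Htr2c (chrX:146962513-147197277, ENSMUSG00000041380) encodes a Gq/11-coupled receptor whose transcript is edited by adenosine deaminases. Naïve mice ran from 7.12 over 12.4 to 24.2 CPM, and withdrawn mice had 9.87, 45.2, 14.7, 9.47 and 22.0 CPM. Withdrawn mouse 2 alone was above the naïve range. The means were 14.4 ± 7.10 and 20.2 ± 14.8 CPM and the log2 fold change was 0.49 (SE 0.48, 95% interval -0.55 to 1.52, edgeR adjusted p = 0.899), and without withdrawn mouse 2 it was -0.05.

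The 3 Gs-coupled receptor genes each had at least 1 mouse at 0 in both groups. Htr4 (chr18:62324204-62496577, ENSMUSG00000026322), whose product raises the excitability of forebrain neurons, had 0 to 9.82 CPM in naïve mice with a median of 0.681, and the highest naïve value came from mouse 6 alone. Withdrawn mice had 0.216, 0, 3.18, 9.47 and 2.55 CPM. The groups overlapped over their whole range, and the log2 fold change of 0.48 had an SE of 1.35 and a 95% interval of -2.41 to 3.38 (edgeR adjusted p = 0.970). Without withdrawn mice 3, 4 and 5 it was -4.19, and without withdrawn mouse 4 it was -0.54.

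Htr6 (chr4:139061108-139075570, ENSMUSG00000028747), a receptor gene largely confined to the brain, had 0 to 6.23 CPM in naïve mice with a median of 4.60, where mouse 5 was at 0 and the next mouse at 2.97. Withdrawn mice had 8.57, 0, 7.47, 5.29 and 4.60 CPM. Mice 1 and 3 were above the naïve range, mouse 2 was at 0, and the log2 fold change was 0.35 (SE 1.08, 95% interval -1.97 to 2.67, edgeR adjusted p = 0.972).

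Htr7 (chr19:35958734-36057507, ENSMUSG00000024798), a receptor gene linked to circadian timing and thermoregulation, had 0 to 12.2 CPM in naïve mice with a median of 3.87. Withdrawn mice had 6.34, 11.4, 0, 0.492 and 5.73 CPM. All withdrawn mice lay within the naïve range and the means were 4.70 ± 4.23 and 4.80 ± 4.71 CPM. The log2 fold change was 0.02 (SE 1.23, edgeR adjusted p = 0.998), but the 95% interval, -2.63 to 2.68, leaves large differences in either direction undetectable here.

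Htr3a (chr9:48899213-48911099, ENSMUSG00000032269), the channel subunit, had 0 (mouse 6) to 20.3 CPM (mouse 5) in naïve mice with a median of 3.12. Withdrawn mice had 0, 11.1, 1.03, 6.52 and 6.08 CPM, all within the naïve range. The log2 fold change was -0.17 (SE 1.33, 95% interval -3.04 to 2.70, edgeR adjusted p = 0.989), and without naïve mouse 5 it was 0.93. In that mouse Htr3a was the highest of the 10 genes per kilobase and made up 46.1% of their summed CPM per kb. Its Gad2 level was 11.9 CPM, while naïve mouse 6, with 0 counts on Htr3a, had 51.3 CPM of Gad2. The summed level of 8 markers of the Htr3a interneuron class, Htr3a not included, was 302 to 467 CPM in naïve and 264 to 939 CPM in withdrawn mice. It was 466 CPM in naïve mouse 5 and 399 CPM in naïve mouse 6. The sum was highest in withdrawn mouse 2, where Htr3a also had its second highest value. Of the 8 markers Cnr1 had the highest mean, 231 CPM over all mice, and so weighed most in this sum.

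**Figure D3:**
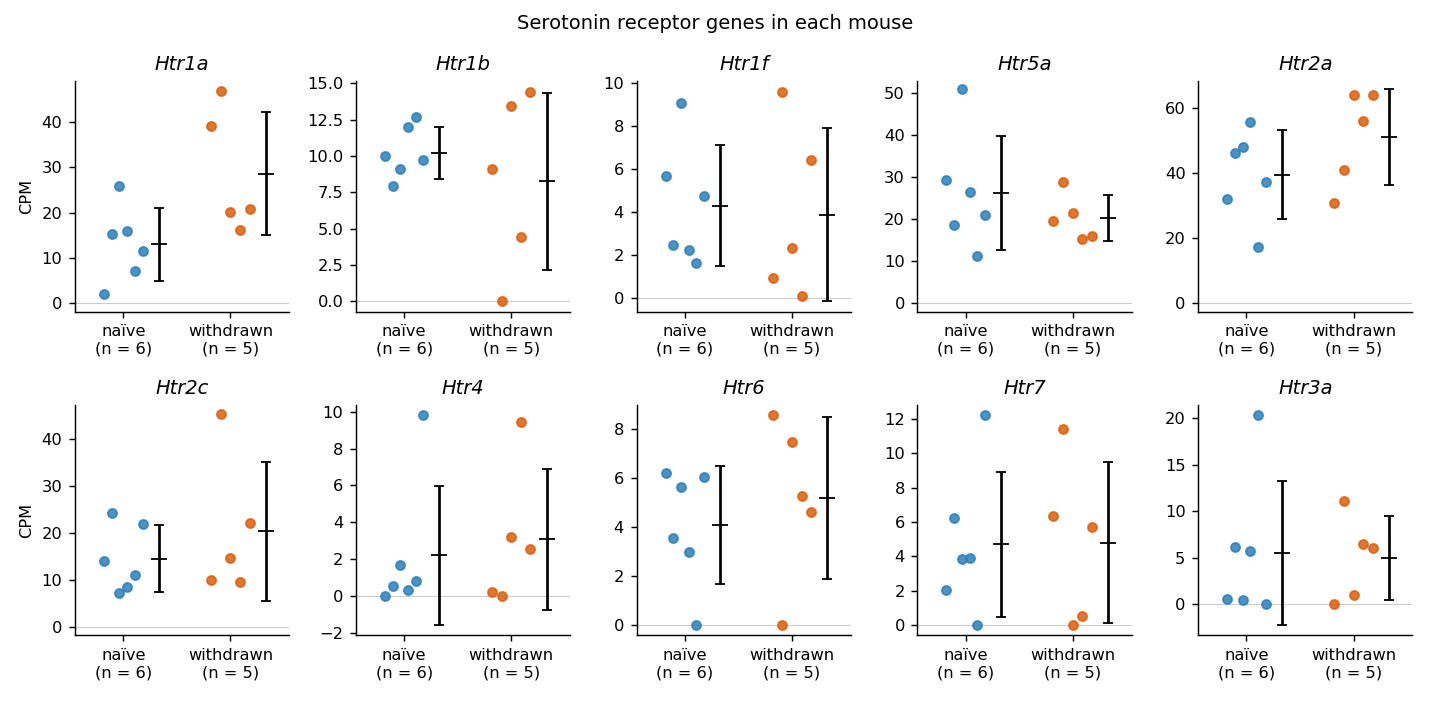
CPM of each receptor gene in each mouse (points, naïve n = 6, withdrawn n = 5), with mean ± SD as the bar beside each group and a linear vertical axis of its own per gene. For Htr1a withdrawn mice 1 and 2 (39.2 and 46.9 CPM) stand above all naïve mice, and in all 10 panels the groups overlap.

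Counts of 0 were frequent in the set. Of 110 values 9 were 0 and 2 were from 1 to 3 counts, and 5 of 10 genes (Htr1b, Htr3a, Htr4, Htr6 and Htr7) had at least 1 mouse at 0. Over all tested genes 28.5% had a mouse at 0, and 23.8% of the 8094 tested genes whose mean CPM was within the range of the receptor genes, 2.60 to 44.6. The mice at 0 differed between genes and were 6 of 11. Withdrawn mouse 2 was at 0 for Htr1b, Htr4 and Htr6, and naïve mouse 5 for Htr6 and Htr7. The median biological coefficient of variation of the receptor genes was 0.912, against 0.529 for all tested genes and 0.596 for those in the same range of mean CPM. Htr1f, Htr3a, Htr4, Htr6 and Htr7 lay near the lower end of that range, so it does not match their level. Against the value that the fit expects at the level of each gene, Htr1f, Htr2a, Htr2c and Htr5a were lower (Htr1f 0.970 against 1.04). The other receptor genes were higher (Htr3a 1.47 against 0.969).

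Receptor signal was also summed by coupling class, as a share of the CPM per kb of the 10 genes. Gi/o-coupled receptors made up 43.0 ± 10.3% in naïve mice (SD, n = 6) and 42.4 ± 9.95% in withdrawn mice (SD, n = 5). Gq/11-coupled receptors made up 32.3 ± 7.57% and 36.3 ± 8.61%. Gs-coupled receptors made up 13.2 ± 9.55% and 14.2 ± 4.75%, and the channel 11.5 ± 17.6% and 7.11 ± 6.01%. In each class the groups differed by less than the spread between mice. The sum itself was 26.4 ± 4.92 CPM per kb in naïve mice (20.9 to 34.1) and 31.3 ± 5.98 in withdrawn mice (25.8 to 40.4), with overlapping ranges.

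**Figure D4:**
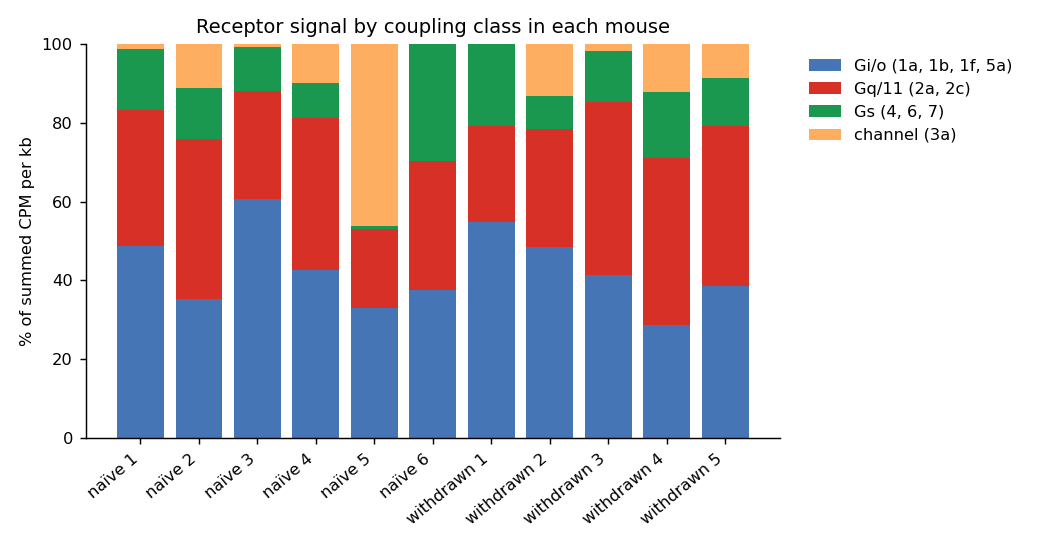
Share of the summed CPM per kilobase of the 10 receptor genes taken by each coupling class (percent, stacked bars, one bar per mouse). The Gi/o share runs from 28.6% to 60.6% over the 11 mice, and the channel share of naïve mouse 5, 46.1%, is the highest.

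Of 4 other mouse serotonin receptor genes, 2 passed the filter. Htr5b, the sister gene of Htr5a, had 2.82 ± 1.76 CPM per kb (SD, n = 11), between the means of Htr5a and Htr3a, and Htr1d had 0.56 ± 0.73. In CPM, Htr5b had 4.62 ± 4.56 CPM in naïve and 6.44 ± 0.90 CPM in withdrawn mice, where the 5 mice had 5.26, 5.82, 6.59, 7.13 and 7.43 CPM and the naïve mice 0 to 11.6. Htr1d had 1.74 ± 2.65 and 1.86 ± 2.17 CPM. Neither passed the test (edgeR adjusted p of 0.966 and 0.994). Htr2b and Htr3b did not pass the filter and were at 0 in 7 and 9 mice.

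Other genes of the serotonin pathway were taken from 6 lists with 62 genes, these 4 receptor genes included, of which 56 were tested. Of these 0 were called, beside 0.00585% of all genes, and 6 of 56 had an unadjusted p under 0.05 (3 higher, 3 lower), beside 7.22% of all genes. The median log2 fold change was -0.04, with 25 genes higher and 31 lower. The smallest adjusted p was 0.305, that of Aldh2.

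Among 13 genes of serotonin synthesis, transport and breakdown, 10 were tested, 7 were higher and 3 lower, and the median log2 fold change was 0.65. Aldh2, the mitochondrial enzyme that oxidizes the aldehydes made from serotonin and from ethanol, had 57.8 ± 12.6 CPM in naïve and 101 ± 33.5 CPM in withdrawn mice, a log2 fold change of 0.81 (SE 0.24, edgeR adjusted p = 0.305). Slc18a1, a vesicular monoamine transporter, had 0.603 and 3.06 CPM (log2 fold change 2.32, SE 0.99, adjusted p = 0.644). The monoamine oxidases Maob and Maoa, which break serotonin down, had means of 50.5 and 21.4 CPM over all mice. None of these passed.

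Downstream of the Gi/o-coupled receptors 10 of 10 genes were tested, 3 higher and 7 lower, with a median of -0.14. Gnai3, a Gi alpha subunit, had 41.1 ± 11.0 CPM in naïve and 59.3 ± 9.58 CPM in withdrawn mice (log2 fold change 0.53, SE 0.22, edgeR adjusted p = 0.614). Kcnj3, a subunit of the potassium channel that Gi/o-coupled receptors open, had 70.2 ± 14.4 and 48.3 ± 8.12 CPM (-0.54, SE 0.20, adjusted p = 0.491), and shares 1621 of its 5215 exon bases with Gm26794 on the opposite strand. The most abundant genes of this list were Rgs4, a brake on G protein signaling, with 822 CPM, Gnai1 with 326 and Gnao1 with 321 CPM.

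Downstream of the Gq/11-coupled receptors 9 of 10 genes were tested, 4 higher and 5 lower, with a median of -0.05. Gnaq, the Gq alpha subunit, had 245 ± 37.9 CPM in naïve and 189 ± 26.1 CPM in withdrawn mice (log2 fold change -0.37, SE 0.15, edgeR adjusted p = 0.567). Prkcb and Plcb1, a kinase and a phospholipase of this route, were among the most abundant with 862 and 324 CPM. In the Gs list 12 of 12 genes were tested, 3 higher and 9 lower, with a median of -0.08 and 0 with an unadjusted p under 0.05. Its most abundant genes were Prkacb, Adcy1 and Prkaca, 2 catalytic subunits of protein kinase A and an adenylyl cyclase, with 562, 230 and 216 CPM.

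Of 13 receptor partners and regulators, 13 were tested, 6 higher and 7 lower, with a median of -0.04. Fyn, a tyrosine kinase, had 168 ± 27.0 CPM in naïve and 125 ± 13.5 CPM in withdrawn mice (log2 fold change -0.43, SE 0.15, edgeR adjusted p = 0.461). Cops5, Fyn and Adar, the last of them an adenosine deaminase that edits transcripts, had the highest means of this list with 149, 148 and 115 CPM.

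**Figure D5:**
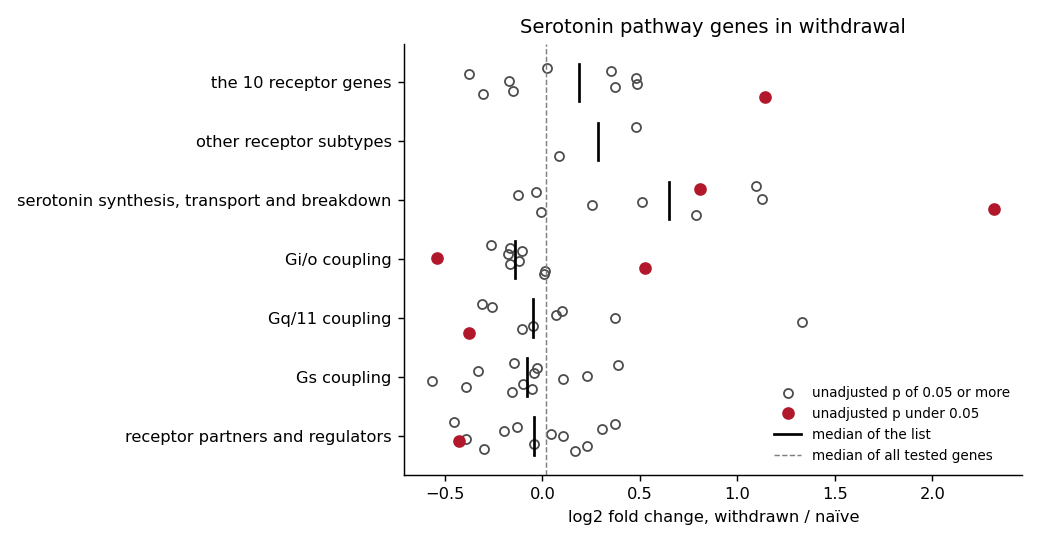
Log2 fold change (withdrawn against naïve) of the tested genes of the 10 receptor genes and the 6 pathway lists, 1 point per gene, with the list median as a bar and the median of all tested genes (0.02) as a dashed line. Filled points have an unadjusted p under 0.05, and no point passed after adjustment.

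The receptor genes did not vary together from mouse to mouse. Over 45 pairs of receptor genes and 11 mice, the median Pearson correlation of log2 CPM was 0.03, with 3 pairs above 0.5 and 2 below -0.5. The lowest was that of Htr3a with Htr6 (r = -0.67, Spearman's rho = -0.84). For 3 of these 5 pairs the rank correlation was close to 0, namely Htr1b with Htr6 (r = 0.59, rho = 0.07), Htr2a with Htr6 (r = 0.52, rho = 0.02) and Htr1b with Htr2c (r = -0.61, rho = -0.07). These correlations share their libraries and depth, and are a description without a test. The genes whose log2 CPM was most like that of each receptor gene, among 11833 or 11834 genes with a mean of at least 5 CPM, were also described over 11 mice. For Htr1a they were Icmt (r = 0.94) and 2610507B11Rik (r = 0.93), for Htr2a Mtmr9 (r = 0.93) and Mef2a (r = 0.92), for Htr5a R3hdm1 (r = 0.92) and Zmat3 (r = 0.90), for Htr2c Itgb1bp1 (r = 0.89) and Agbl4 (r = 0.86), and for Htr1f Yeats4 (r = 0.92) and Rhof (r = 0.90). Such values are the highest of 11833 or 11834 correlations over 11 mice, a choice that favors high ones. How high they would be for unrelated genes was not tested.

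For the genes with a mouse at 0 the likeness rested partly on those mice. Htr1b was most like Kiss1r (r = 0.99) and Ddx52 (r = 0.99), which were 0.87 and 0.76 without withdrawn mouse 2. Htr6 was most like Alg12 and Galns (both r = 0.98), which were 0.60 and 0.31 without the mice at 0. Htr3a was most like Tdp2 (r = 0.91) and 2810459M11Rik (r = 0.89), Htr4 like Edem3 (r = 0.89) and Rgl1 (r = 0.86), and Htr7 like Ntsr1 (r = 0.92) and Tardbp (r = 0.88), with values of 0.71 to 0.86 without the mice at 0.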

How the data were processed

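RNA of mPFC CRF1+ neurons sorted from 6 naïve and 5 withdrawn mice was sequenced from 160 pg of RNA per mouse. The authors trimmed reads with cutadapt, used STAR to map them to GRCm38 with the Ensembl 91 annotation, and counted reads on genes with HTSeq. The deposited values are those raw counts, 1 file per mouse, neither normalized nor pooled. Whether the counting used strand is not given in the sources used here. Rows of reads assigned to no gene, 18.9% to 58.0% of the reads tallied per mouse, stayed out of library sizes and tests. Symbols, positions and exon lengths come from GENCODE M21 on GRCm38, in which 53360 of 53465 identifiers have a symbol.

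Groups follow the title and treatment of each sample. No library was a copy of another, as chi-square divided by its degrees of freedom was at least 25.6 in the 25 pairs within groups and 29.0 in the 30 pairs across them. Withdrawn mice were compared with naïve mice in edgeR 4.0.16 (R 4.3.3) by the quasi-likelihood test over all genes, with TMM normalization and filterByExpr (minimum count 10, minimum total 15), Benjamini-Hochberg adjustment, and calls where the adjusted p did not exceed 0.05 and the log2 fold change exceeded 0.6 in size. The SE is the size of the log2 fold change divided by the square root of F, and the 95% interval uses the t quantile at the degrees of freedom of the fit. CPM use TMM library sizes, and log2 CPM a prior count of 2. The code was tested on simulated data.

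Alternatives were DESeq2 1.42.0 (test, and size factors within edgeR), voom with quality weights in limma 3.58.1, other low-count filters, a replicate block, covariates for genes detected and for interneuron markers, another exon length, and fits without each mouse or without the 3 mice with conflicting labels. The receptor genes were listed by symbol in a rule that takes no measured value, but they and the pathway and marker lists were chosen with earlier results of these data known. Named were all receptor genes, list genes with an unadjusted p under 0.05 or among the 3 highest of their list, and the 2 genes most correlated with each receptor gene (mean CPM of at least 5), except 1 item that is not reported here. Htr2b, Htr3b, D430036J16Rik, Gad1, Sst, Gja1, Tph2, Slc6a4 and Fev were named after their values were seen.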

Additional observations from a re-analysis of the deposited data

Results flagged for a closer look

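In 4 cases 1 mouse stood apart from the others of its group by Dixon's criterion at 95%, among 28 sets of values examined. For normally distributed values chance gives about 1 in 20, or 1.4. Values at 0 counts and shares are not of that kind, so 4 cannot be read as an excess over 1.4. On the log2 CPM scale, Htr1b in withdrawn mouse 2 was at -2.80 (0 counts), with the nearest withdrawn mouse at 2.19. Htr6 was at -2.80 (0 counts) in naïve mouse 5, with the nearest naïve mouse at 1.64, and also at -2.80 (0 counts) in withdrawn mouse 2, with the nearest withdrawn mouse at 2.25. The channel share of the summed CPM per kb was 46.1% in naïve mouse 5, with the nearest naïve mouse at 11.1%. Naïve mouse 5 also had the fewest genes detected (15585). Withdrawn mouse 2 had 8696939 counts on genes and 23659 genes detected, and 50.2% of its tallied reads were assigned to no gene. That share was lowest in naïve mouse 5 (18.9%) and highest in withdrawn mouse 4 (58.0%). The part of these libraries' quality in the values was not tested.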

How the results depend on the processing

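No receptor gene and no pathway list gene was called in any of the fits. Htr1a separated the groups (1 gene in place of 0) without the 3 withdrawn mice with conflicting labels, and the count was 0 to 1 over the fits that left out 1 mouse (1 without naïve mouse 3). With the longest transcript as length, 6 of 10 genes kept their place in the order of levels. The direction of the log2 fold change turned for 7 genes. Htr7 was at -2.40 by voom and -0.022 without the low-count filter, Htr3a at 0.21 with genes detected and 0.50 with the interneuron score as covariate, and Htr1f at 0.19 with that score. Without the 3 withdrawn mice Htr1f was at 0.22, Htr2a at -0.20 and Htr4 at -4.19. With each mouse left out, the ranges were -0.59 to 0.58 for Htr7, -0.75 to 0.93 for Htr3a, -0.78 to 0.22 for Htr1f, -0.54 to 2.19 for Htr4, -0.60 to 0.014 for Htr1b and -0.046 to 0.69 for Htr2c. The causes were not tested beyond the mice named. Htr1b, Htr1f, Htr3a, Htr4, Htr6 and Htr7 had no value when 10 counts were required in every mouse.

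The titles give naïve and withdrawn mice different animal numbers, but the replicate numbers come from the label that conflicts for withdrawn mice 3, 4 and 5. In mice that share a replicate number, deviations from the group means correlated at -0.20 to 0.18, with 1 of 5 withdrawn mice most like the naïve mouse of its own number. With the replicate block 0 receptor genes were called, and Htr1a was at 1.31 (edgeR adjusted p = 0.882). The spread between mice and the low counts of 6 of the genes limit what can be seen, and for Htr3a, Htr4 and Htr7 the 95% intervals reach beyond 2 on the log2 scale in both directions.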

Other observations

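Tph2, the enzyme that makes serotonin in raphe neurons, did not pass the filter and was named after its values were seen. It had 0, 11, 0, 2, 0 and 0 counts in naïve mice 1 to 6 and 43, 5, 0, 18 and 44 counts in withdrawn mice 1 to 5, or 0.12 ± 0.24 CPM (SD, n = 6) and 1.80 ± 1.45 CPM (SD, n = 5). The groups overlapped, and DESeq2, which applied no such filter, gave 3.88 on the log2 scale (adjusted p = 0.267). Slc6a4, the serotonin transporter, had 0 to 52 counts in naïve and 1 to 53 counts in withdrawn mice and also lay below the filter. Fev, a transcription factor of serotonin neurons, was at 0 in 9 of 11 mice.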
